A study of Mus musculus with 8 samples.

Results

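RNAseq of intestinal epithelial cells (IECs) was used to follow 6 genes of calcium absorption, Trpv6, S100g, Atp2b1, Slc8a1, Vdr and Cyp24a1. They were found by their symbols in both deposited count tables, 6 of the 40178 genes that the tables list together. The IECs were taken from both tissues, colon and ileum, of 2 WT mice (DDX5(+/+), Vil1Cre(+)) and 2 DDX5ΔIEC mice (Ddx5 fl/fl, Vil1Cre(+)), untreated littermates 8 weeks old, which gave 8 libraries. Both genotypes carry the Cre recombinase, which the Vil1 promoter drives in the gut epithelium, so that DDX5, an RNA helicase of the DEAD-box family, is lost from these cells in DDX5ΔIEC. The cells were an EDTA fraction and were not sorted, and each of the 4 mice gave both a colon and an ileum library. The 6 genes were put together with the genotype differences of these same libraries known. Their genotype differences are therefore given as a description, without a test, and only the difference between ileum and colon, averaged over the genotypes, is tested for them.

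Calcium crosses an enterocyte in 3 steps. It enters from the lumen through a channel such as TRPV6, is carried through the cytosol by a buffer, calbindin-D9k, which S100g encodes, and leaves across the basolateral membrane. The plasma membrane calcium ATPase PMCA1, encoded by Atp2b1, and the sodium-calcium exchanger NCX1, encoded by Slc8a1, carry out that last step. Vdr encodes the vitamin D receptor, a nuclear receptor that pairs with RXR and binds direct repeats of the hexamer AGGTCA or close variants of it. Trpv6, S100g and Cyp24a1 are classical targets of the receptor in the intestine, and Cyp24a1 encodes the enzyme that inactivates the active hormone.

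In GENCODE M21 on GRCm38, Trpv6 lies at chr6:41620624-41636405, S100g at chrX:162961992-162964599, Slc8a1 at chr17:81373105-81738377, Vdr at chr15:97854425-97910630 and Cyp24a1 at chr2:170482708-170497145, all on the minus strand. Atp2b1 lies at chr10:98914406-99026143 on the plus strand. S100g sits wholly inside Ctps2, which is read from the opposite strand, but no exon base of S100g is shared with a Ctps2 exon. Cyp24a1 shares 83 of its 3560 exon bases with Pfdn4. Of the 50-base words of each gene, 0% to 1.33% were shared with another gene's transcripts. The annotation behind the tables holds 2934 bases of Slc8a1 exon, close to the 2957 coding bases of M21 and far from the 18807 exon bases of M21. Its levels per kb thus refer to a length near that of its coding part, and its identifier has another version in M21.

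The promoters of S100g, Trpv6 and Slc8a1 are shown because these genes differed most between the groups. Each line gives the 250 bases before the RefSeq start on GRCm38.p6, 5′ to 3′ on the strand of the gene, at chrX:162964600-162964849, chr6:41636406-41636655 and chr17:81738388-81738637, all minus strand. Capitals mark the hexamer AGGTCA and the variants GGGTCA and, further, AGTTCA as well as GGTTCA on either strand, and no 2 of them overlapped.
S100g: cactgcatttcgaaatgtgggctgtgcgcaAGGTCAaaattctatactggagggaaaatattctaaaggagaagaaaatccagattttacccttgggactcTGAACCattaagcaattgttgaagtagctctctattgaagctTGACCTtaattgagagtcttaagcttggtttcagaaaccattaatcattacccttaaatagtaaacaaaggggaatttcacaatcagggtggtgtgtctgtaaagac
Trpv6: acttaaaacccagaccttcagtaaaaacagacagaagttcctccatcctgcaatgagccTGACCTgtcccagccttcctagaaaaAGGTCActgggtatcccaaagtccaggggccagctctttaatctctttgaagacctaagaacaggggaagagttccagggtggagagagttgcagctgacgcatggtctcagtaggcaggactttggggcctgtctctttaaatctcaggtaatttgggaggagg
Slc8a1: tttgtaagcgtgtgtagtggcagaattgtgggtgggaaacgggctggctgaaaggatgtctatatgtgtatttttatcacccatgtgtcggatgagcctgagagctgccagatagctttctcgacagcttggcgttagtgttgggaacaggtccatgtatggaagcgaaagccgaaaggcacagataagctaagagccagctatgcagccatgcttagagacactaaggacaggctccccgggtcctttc

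The S100g window held 3 such hexamers and the Trpv6 window 2, while the Slc8a1 window held 0. A hexamer of this kind is common, since 38.6% of 32851 RefSeq promoter windows of the same length held at least 1. The arrangement that the receptor is known to prefer, 2 of them on 1 strand spaced by NNN, was found in 13 of all the windows (0.0396%) and in none of the 5 genes with a RefSeq entry. The Vdr window held 1 hexamer and both Atp2b1 windows held 0. The hexamers of S100g lay 215 to 220, 144 to 149 and 102 to 107 bases before the start. These matches describe letters in 1 short window only. Cyp24a1 had no entry in the promoter table.

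Total counts per library ranged from 11571061 to 22984283. Levels are given as CPM, counts scaled to a common library size, after TMM scaling over all 8 libraries, and as CPM per kb where genes are compared with each other. Ddx5 itself was at 770 and 705 CPM in WT colon, 367 and 354 in DDX5ΔIEC colon, 699 and 699 in WT ileum and 339 and 326 in DDX5ΔIEC ileum, log2 differences of −1.04 (SE 0.09, adjusted p = 0.0866, edgeR) and −1.07 (SE 0.18, adjusted p = 0.0270), so that part of its RNA remained. The epithelial markers Epcam, Cdh1, Vil1, Krt8 and Krt18 had at least 10 counts in every library. The ileum markers summed to 4423 to 9200 CPM in the ileum and to 170 to 340 CPM in the colon, and 5 of 5 were higher in the ileum with an adjusted p-value under 0.05. The smooth muscle marker Acta2 had at most 5 counts and Cnn1 at most 1 in any library. The stromal gene Col3a1 had more, 232 counts in WT colon and 37 in WT ileum over both libraries. Several libraries stood apart. DDX5ΔIEC ileum replicate 2 had 19.5% of its counts on 3 repeat-like genes, against 0.226% in replicate 1 and 4.04% and 3.93% in WT ileum. DDX5ΔIEC colon replicate 1 had the highest sum of distal hindgut markers, 365 CPM against 183 to 219 in the other colon libraries, and the lowest sum of immune markers, 7.28 CPM. In the same library Cubn, an ileal gene, was at 0.165 CPM against 9.55 to 15.3 CPM in the other colon libraries. For the calcium absorption genes that could be fitted, the differences are given with and without these libraries. For most other genes they are given with all libraries only.

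**Figure D1:**
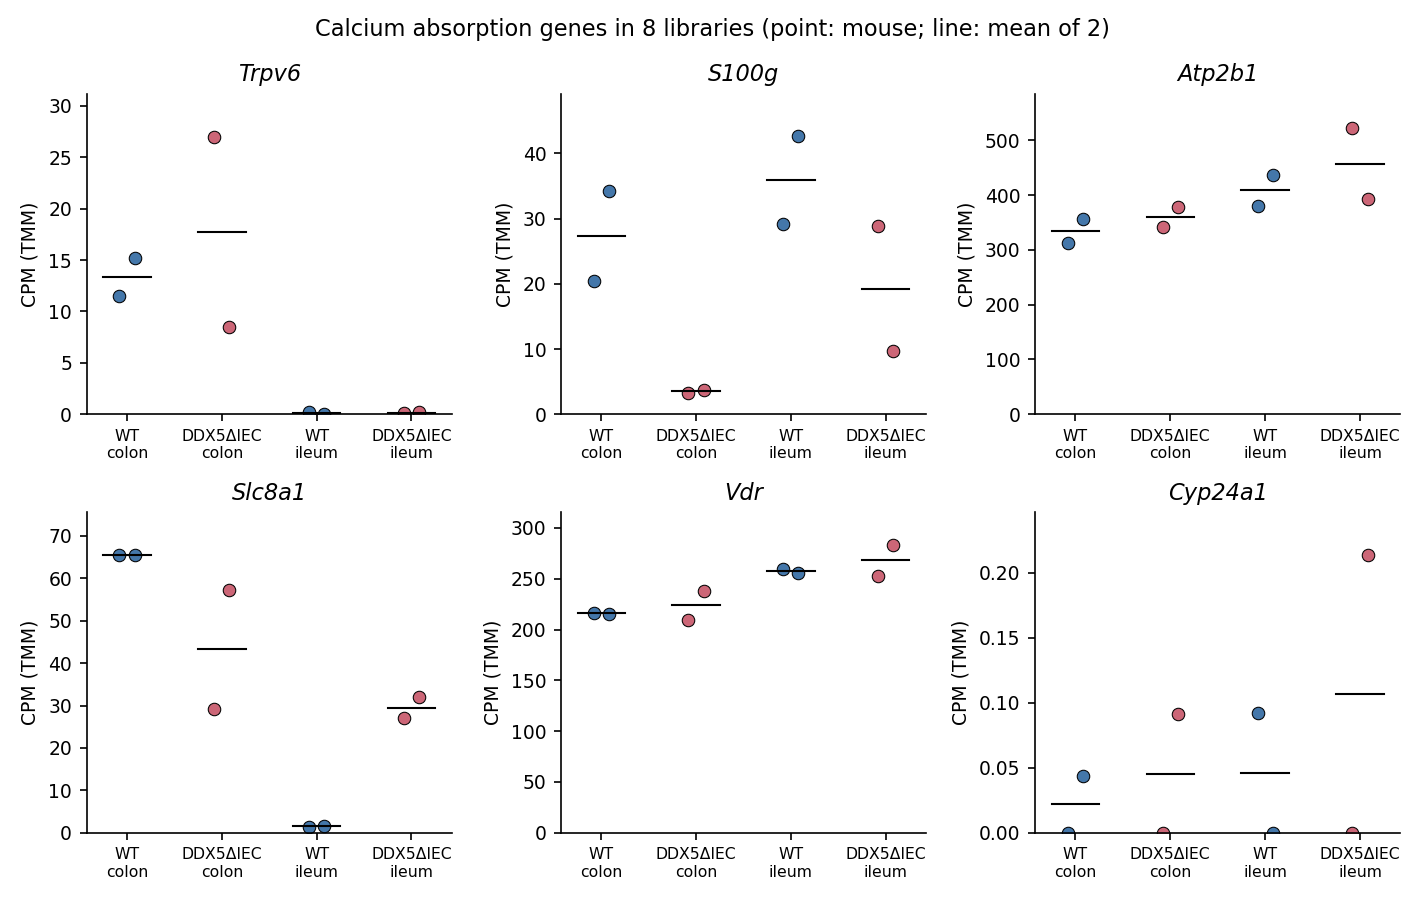
CPM of the 6 genes in each library (linear axes from 0), by genotype and tissue, with a point per mouse (replicate 1 left, replicate 2 right) and a line at the mean of 2. S100g lay at 3.31 and 3.78 CPM in DDX5ΔIEC colon, Slc8a1 at 1.47 and 1.52 CPM in WT ileum, and Trpv6 near 0 in all 4 ileum libraries.

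Of the 6 genes, S100g differed most between the genotypes in the colon. The buffer was at 20.4 and 34.3 CPM in the WT colon of replicates 1 and 2, and at 3.31 and 3.78 CPM in the DDX5ΔIEC colon. Both DDX5ΔIEC libraries were far below both WT libraries. The means were 27.3 ± 9.79 and 3.54 ± 0.333 CPM (SD, n = 2 mice), a 7.71-fold lower mean in DDX5ΔIEC. In edgeR's fit with the replicate number as a block, the log2 difference was −2.93 (SE 0.19). Among the 15362 genes fitted in the colon, 15 had a lower value. The groups did not overlap, with DDX5ΔIEC lower, for 20.8% of these genes, and an exact permutation test of 2 against 2 libraries cannot give a p-value below 0.333.

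In the ileum S100g was at 29.2 and 42.7 CPM in WT and at 28.8 and 9.72 CPM in DDX5ΔIEC. Replicate 1 of DDX5ΔIEC lay just under the lower WT library, and replicate 2 lay well under it, an order without overlap that 20.8% of genes showed in the ileum too. The first pair differed by a ratio of 0.987 and the second by 0.227. The means were 36.0 ± 9.57 and 19.3 ± 13.5 CPM (SD, n = 2), with a log2 difference of −0.98 (SE 0.36, against SE 0.93 in DESeq2). The value rested on DDX5ΔIEC replicate 2, the library rich in repeat-like reads: without it the difference was −0.30, and without DDX5ΔIEC replicate 1 it was −1.89. In the colon, leaving out any 1 library gave −3.27 to −2.52. The ileum difference exceeded the colon difference by 1.87 (SE 0.46) on the log2 scale.

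Since the library scaling cancels within a library, S100g was also set against Vdr. Per kb, S100g stood at 1.11 and 1.87 times Vdr in WT colon and at 0.185 and 0.187 times Vdr in DDX5ΔIEC colon. In the ileum the ratio was 1.32 and 1.97 in WT and 1.34 and 0.404 in DDX5ΔIEC. On this scale both DDX5ΔIEC mice lay below both WT mice in the colon, whereas in the ileum 1 of 2 did. Ctps2, whose body encloses S100g, was at 29.5 and 24.7 CPM in WT colon and 22.7 and 23.9 CPM in DDX5ΔIEC colon, a log2 difference of −0.22 (SE 0.12). Whether the counting used the strand is not given in the sources used here. Other lists moved with genotype in the colon too. The 9 immune markers summed to 31.4 and 25.02 CPM in WT colon and to 7.28 and 15.2 CPM in DDX5ΔIEC colon, and the 5 colon markers summed to 3377 and 3632 CPM against 4169 and 4633 CPM. Among the defining immune markers, Cd79a had at most 1 count in any colon library, and Ptprc had 423, 452, 98 and 239 counts. Ptprc made up most of the immune sum, which therefore does not describe all 9 markers. Of the 7 immune markers fitted in the colon, 3 were lower by at least 0.5 (log2) with an unadjusted p-value under 0.05 (edgeR). By the same rule 0 were higher. Jchain had a higher mean in DDX5ΔIEC colon, 0.822 against 0.276 CPM, from 34 and 11 counts over both libraries. The part of these lists in the S100g difference was not tested.

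Slc8a1 differed between the genotypes in opposite directions in the 2 tissues. In the ileum the exchanger was at 1.47 and 1.52 CPM in WT and at 27.1 and 31.9 CPM in DDX5ΔIEC, from 32 and 22 counts and from 289 and 299 counts. Both DDX5ΔIEC libraries were far above both WT libraries, by ratios of 18.4 and 20.9 in the pairs. The log2 difference was 4.28 (SE 0.20), the highest of the 14068 genes fitted in the ileum. For 18.6% of those genes the groups did not overlap with DDX5ΔIEC higher. Leaving out any 1 ileum library gave 4.19 to 4.40, and leaving out the library rich in repeat-like reads gave 4.19.

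In the colon Slc8a1 was at 65.5 and 65.6 CPM in WT and at 29.3 and 57.2 CPM in DDX5ΔIEC. Both DDX5ΔIEC libraries lay below WT, replicate 2 by little, an order that 20.8% of genes fitted in the colon showed. The means were 65.5 ± 0.0604 and 43.2 ± 19.8 CPM (SD, n = 2), with a log2 difference of −0.68 (SE 0.24). This value moved with 1 library: without DDX5ΔIEC replicate 1, the library with the high distal hindgut markers, it was −0.20, and without DDX5ΔIEC replicate 2 it was −1.16. The ileum difference exceeded the colon difference by 4.96 (SE 0.29), and by 4.49 to 5.46 with 1 library left out.

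As a share of the 2 exit routes per kb, Slc8a1 made up 52.1% and 48.9% of Slc8a1 plus Atp2b1 in WT colon and 30.8% and 43.9% in DDX5ΔIEC colon. In the ileum it made up 1.98% and 1.77% in WT and 21.2% and 29.6% in DDX5ΔIEC. The DDX5ΔIEC ileum thus lay between the WT ileum and the colon on this scale. These shares rest on the 2934 bases of Slc8a1 that the tables count.

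NCX1 is also well known from muscle and nerve. In the 4 ileum libraries the muscle markers Acta2, Myh11, Des, Tagln and Cnn1 had 0 to 8 counts each, and the nerve and glia markers 0 to 8 counts each. In the order WT replicates 1 and 2, then DDX5ΔIEC replicates 1 and 2, Acta2 had 5, 0, 1 and 1 counts, Cnn1 1, 1, 0 and 0, and Tagln 6, 1, 3 and 0. Myh11 had 8, 0, 4 and 4 counts and Des 6, 1, 6 and 6, so that in CPM both were higher on average in DDX5ΔIEC. The whole list of 11 muscle and stroma genes summed to 113 and 146 CPM in WT ileum and to 89.6 and 137 CPM in DDX5ΔIEC ileum, of which Kit and Ano1 made up the most. In the colon it summed to 293 and 286 CPM in WT and to 378 and 295 CPM in DDX5ΔIEC. Of the 6 tested between the tissues, 5 were lower in the ileum and 1 higher at an adjusted p-value under 0.05 (edgeR). Of all genes, 26.0% were lower. Of the enteroendocrine markers, Chga and Chgb were higher in DDX5ΔIEC ileum, by 0.92 (SE 0.16, adjusted p = 0.0303, edgeR) and 0.69 (SE 0.15, adjusted p = 0.0733), of which the first passed. The other 3 lay on both sides, Isl1 at −0.44 (SE 0.51), Neurod1 at −0.19 (SE 0.61) and Pax6 at 0.49 (SE 0.59). The list of 5, nearly all of it Chga and Chgb, summed to 41.5 and 40.7 CPM in WT ileum and to 74.7 and 62.4 CPM in DDX5ΔIEC ileum. The part of these lists in the Slc8a1 differences was not tested. In bulk IECs, fewer cells of a type and less RNA per cell cannot be told apart.

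**Figure D2:**
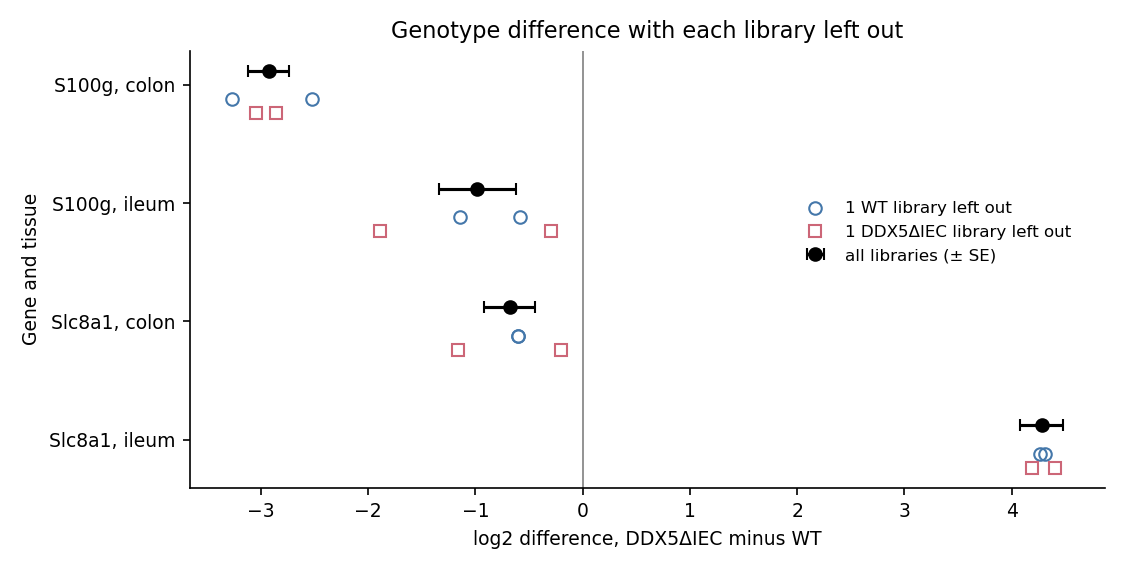
Log2 difference of S100g and Slc8a1, DDX5ΔIEC minus WT, in each tissue, with all libraries (black, ± SE, replicate block) and with each library left out in turn (open circles, a WT library; open squares, a DDX5ΔIEC library; fits of all libraries without a block). Slc8a1 in the ileum stayed between 4.19 and 4.40, whereas S100g in the ileum ran from −1.89 to −0.30.

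Trpv6, the luminal entry channel, was nearly absent from the ileum libraries. It had 5 and 1 counts in WT ileum and 1 and 2 counts in DDX5ΔIEC ileum, against 220 and 346 counts in WT colon and 490 and 187 in DDX5ΔIEC colon. All colon libraries thus lay far above all ileum libraries. Per total count, without TMM scaling, the colon held 94.5 times the ileum rate in WT (95% interval 43.2 to 259, from an exact binomial interval of the counts) and 145 times in DDX5ΔIEC (49.4 to 705). Such intervals cover counting error only. Within the colon, Trpv6 was at 11.5 and 15.2 CPM in WT and at 27.0 and 8.51 CPM in DDX5ΔIEC. The DDX5ΔIEC libraries lay on either side of WT, with a log2 difference of 0.20 (SE 0.50). The high value was in DDX5ΔIEC replicate 1, and without that library the difference was −0.66. In that library Hoxd13, a distal hindgut marker, had 1247 counts against 360 to 477 in the other colon libraries, and its part in the Trpv6 value was not tested. Trpv6 was not fitted within the ileum.

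Atp2b1, the calcium pump of the basolateral membrane, was at 313 and 356 CPM in WT colon and at 341 and 379 CPM in DDX5ΔIEC colon. The ranges overlapped, with a log2 difference of 0.10 (SE 0.08). In the ileum it was at 379 and 437 CPM in WT and at 522 and 394 CPM in DDX5ΔIEC, a difference of 0.16 (SE 0.19). These libraries overlapped too. Left-out libraries gave 0.01 to 0.20 in the colon and −0.06 to 0.37 in the ileum.

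Vdr, the receptor, was the steadiest of the genes. It was at 216 and 216 CPM in WT colon and at 210 and 238 CPM in DDX5ΔIEC colon. In the ileum it was at 260 and 255 CPM in WT and at 253 and 283 CPM in DDX5ΔIEC. In each tissue the DDX5ΔIEC libraries lay on either side of WT, with log2 differences of 0.04 (SE 0.09) and 0.06 (SE 0.15).

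Cyp24a1, the enzyme that clears the hormone, was barely detected. It had 0 and 1 counts in WT colon, 0 and 2 in DDX5ΔIEC colon, 2 and 0 in WT ileum and 0 and 2 in DDX5ΔIEC ileum, 7 in all. A count of 0 allows up to 3 counts, which is 0.157 to 0.281 CPM in the libraries at 0. No difference was detectable at this depth, and the gene was not fitted.

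By the study's own criterion, a log2 difference of at least 0.5 in size with an unadjusted p-value under 0.05, 2 of the 5 genes fitted were lower in DDX5ΔIEC colon, S100g and Slc8a1. That criterion called 3.67% of all genes lower in the colon. In the ileum 1 of 4 was lower, S100g, and 1 higher, Slc8a1, where it called 3.48% lower and 3.87% higher. The genes were gathered for these values, so nothing is read from the counts.

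**Figure D3:**
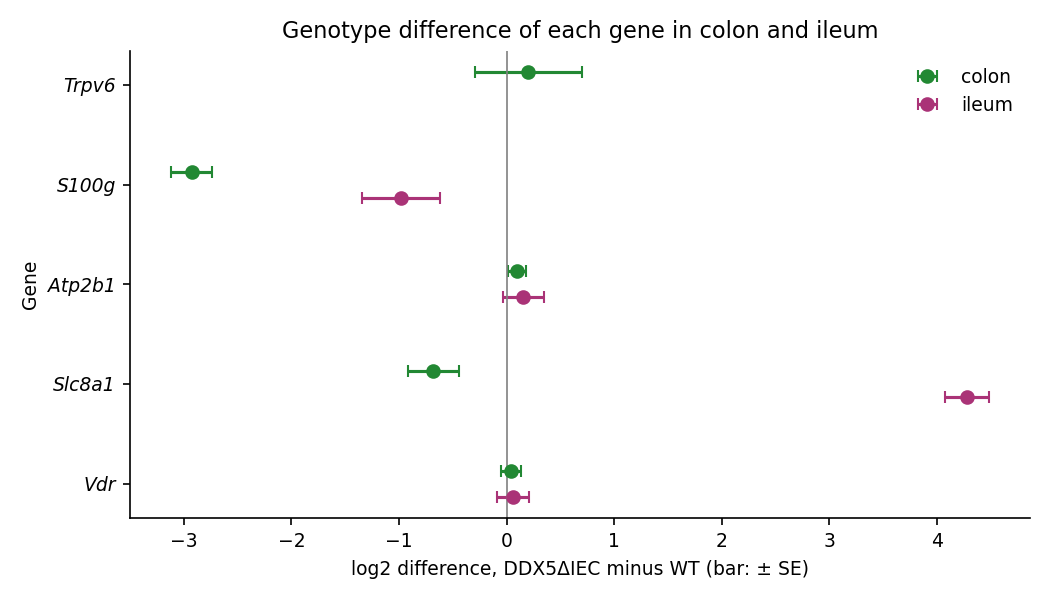
Log2 difference, DDX5ΔIEC minus WT, of 5 genes in the colon (green) and 4 genes in the ileum (purple), with bars of 1 SE from edgeR's fit in each tissue. S100g lies at −2.93 and −0.98 and Slc8a1 at −0.68 and 4.28, while the others lie within 0.20 of 0; Trpv6 in the ileum and Cyp24a1 were not fitted.

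Per kb, the order of the genes changed between groups. In WT colon the order of mean CPM per kb was S100g (56.9), Vdr (38.2), Slc8a1 (22.3), Atp2b1 (22.0), Trpv6 (3.40) and Cyp24a1 (0.00618). Slc8a1 and Atp2b1 did not differ beyond the spread of the mice there. In DDX5ΔIEC colon S100g stood below Vdr (39.7), Atp2b1 (23.6) and Slc8a1 (14.7), at 7.38 CPM per kb, and no neighbours overlapped. In WT ileum S100g was again at the top with 74.9 CPM per kb, followed by Vdr (45.6) and Atp2b1 (26.8), and Slc8a1 was down at 0.511. In DDX5ΔIEC ileum Vdr (47.4), S100g (40.2) and Atp2b1 (30.1) led, and S100g overlapped with both of its neighbours. Slc8a1 followed at 10.1 CPM per kb, below the range of Atp2b1.

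The difference between ileum and colon, averaged over the genotypes with the mouse as a block, was tested over 16178 genes. It is a separate contrast from the genotype differences known when the genes were chosen, but it comes from the same 8 libraries. At an adjusted p-value under 0.05 (edgeR's quasi-likelihood test, Benjamini-Hochberg), 51.6% of all genes differed, so that a call is common. All 5 genes that could be tested passed, 2 lower and 3 higher in the ileum, where 26.0% and 25.6% of all genes did. Trpv6 was lower by far, with a log2 difference of −6.54 (SE 0.32, adjusted p = 7.95e-06, edgeR), lower in the ileum of 4 of 4 mice. Its fitted value against 1 to 5 counts depends on the model, and the count ratios above are the firmer figures. Slc8a1 was lower by 2.96 on average (log2 −2.96, SE 0.15, adjusted p = 8.38e-06, edgeR), again in 4 of 4 mice.

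That average joins unlike values. In WT, Slc8a1 was at 65.5 and 65.6 CPM in the colon and at 1.47 and 1.52 CPM in the ileum of the same mice, ratios of colon to ileum of 44.4 and 43.0. In DDX5ΔIEC these ratios were 1.08 and 1.79. S100g was higher in the ileum by 1.35 (SE 0.23, adjusted p = 0.00265, edgeR), in 4 of 4 mice, but from ratios of 1.43 and 1.25 in WT and of 8.72 and 2.57 in DDX5ΔIEC. The S100g average thus rests largely on the DDX5ΔIEC mice, whose low colon values were known when the genes were chosen. Leaving out any 1 library, in fits without a block, gave 0.91 to 1.71 for S100g, −3.21 to −2.72 for Slc8a1 and −7.13 to −6.03 for Trpv6.

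Vdr was higher in the ileum by 0.26 (SE 0.07, adjusted p = 0.0203, edgeR), with ratios of ileum to colon of 1.20, 1.18, 1.20 and 1.19 in the 4 mice. Atp2b1 was higher by 0.31 (SE 0.11, adjusted p = 0.0479, edgeR), with ratios of 1.21, 1.23, 1.53 and 1.04. Neither call held under all settings. Without a filter on low counts the adjusted p-value was 0.220 for Vdr and 0.0901 for Atp2b1. Without the mouse block alone it was 0.0308 for Vdr and 0.0521 for Atp2b1 (edgeR). Fits with 1 library left out also dropped that block, and either call could be lost in them. The size in those fits stayed at 0.21 to 0.30 for Vdr and 0.20 to 0.42 for Atp2b1. Of the 5 genes, 3 did not overlap between the tissues (Trpv6, Vdr and Atp2b1), against 44.8% of all genes.

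**Figure D4:**
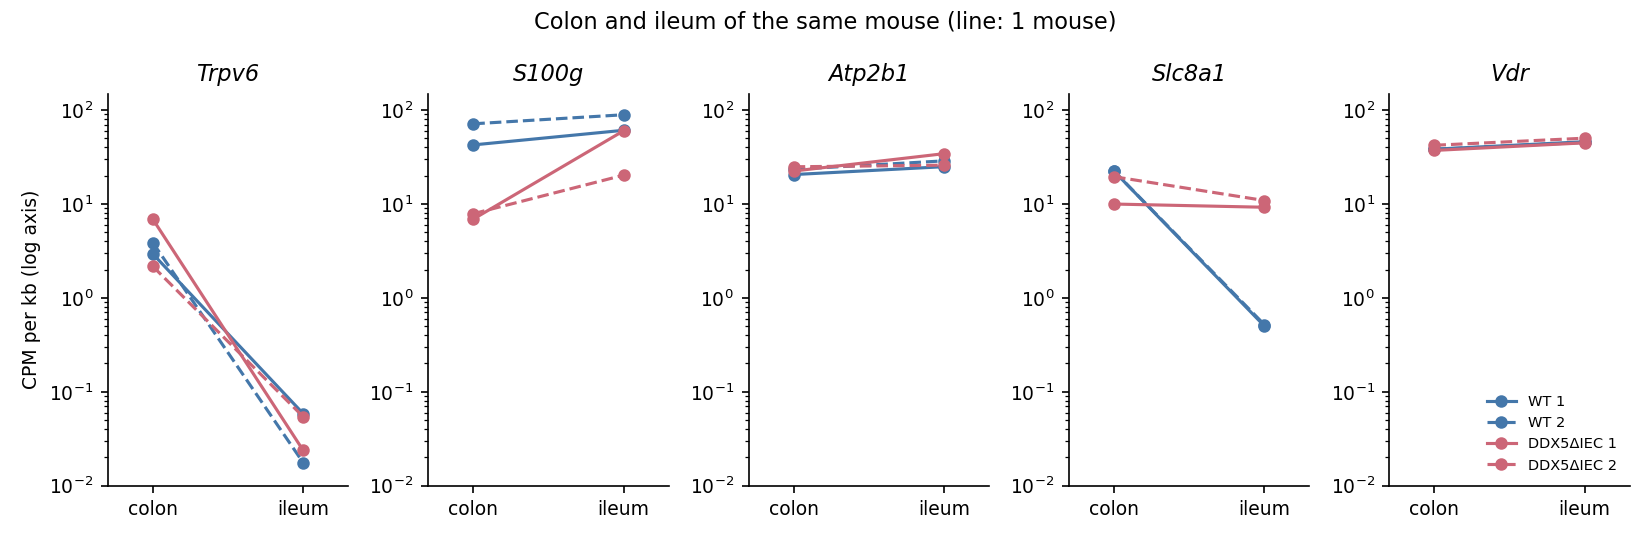
CPM per kb (log axis) of 5 genes in the colon and the ileum of each mouse; a line joins the libraries of 1 mouse, blue WT and red DDX5ΔIEC, solid replicate 1 and dashed replicate 2. Slc8a1 had a mean of 22.3 CPM per kb in WT colon and 0.511 in WT ileum, against 14.7 and 10.1 in DDX5ΔIEC, and Trpv6 was lower in the ileum of all 4 mice.

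Other calcium transport genes were taken from a list of 36, of which 25 could be tested between the tissues. The 11 others had at most 7 counts in any library, among them Calb1, which encodes calbindin-D28k, Trpv5, the renal relative of Trpv6 next to it on chromosome 6, and the exchangers Slc8a2 and Slc8a3. In the genotype comparison of the colon, 23 of the 36 were fitted, with a median log2 difference of 0.06 against −0.00042 over all genes. The criterion called 2 of them higher and 0 lower, where it called 3.04% and 3.67% of all genes. They were Cacna1d, an L-type calcium channel subunit, at 1.53 (SE 0.38, adjusted p = 0.311, edgeR), and Slc24a3, a potassium-dependent exchanger, at 0.64 (SE 0.22, adjusted p = 0.378, edgeR). Cacna1d had 10 and 9 counts in WT colon and 32 and 22 in DDX5ΔIEC colon.

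In the ileum 23 were fitted, with a median of 0.02 against −0.00457 over all genes. The criterion called 1 lower and 0 higher. This was Atp2b2, a further plasma membrane calcium pump, at 5.57 and 6.996 CPM in WT and at 3.00 and 4.80 CPM in DDX5ΔIEC, a log2 difference of −0.71 (SE 0.26, adjusted p = 0.296, edgeR). Its groups did not overlap, with DDX5ΔIEC lower, as for 20.8% of genes fitted in the ileum. Without the replicate block Atp2b2 did not pass, and none of the 23 did. None of the listed calcium transport genes had an adjusted p-value under 0.05 in either tissue. In the colon edgeR called 0 of 15362 genes at that threshold (1836 at an unadjusted p-value under 0.05), and DESeq2 called 117.

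Between the tissues, 10 of the 25 calcium transport genes tested were lower in the ileum and 12 higher at an adjusted p-value under 0.05 (edgeR), where 51.6% of all genes passed in either direction. Their median log2 difference was 0.25, against −0.03 over all genes. On the side of entry, Trpm6, a magnesium and calcium channel, was lower in the ileum by 2.58 (log2 −2.58, SE 0.10), and so were Stim1 (−1.66), Orai3 (−0.65) and Orai2 (−0.29). Orai1, the pore of store-operated entry, was higher by 0.79 (SE 0.08), as were Stim2 (0.45) and Trpm7 (0.30). Among the calcium-binding proteins, the calmodulin gene Calm2 (0.26) was higher.

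Genes of calcium exit and exchange lay on both sides. Slc8b1, the mitochondrial sodium-calcium exchanger, was lower in the ileum (log2 −3.29, SE 0.18), like Slc8a1, and so was Slc24a3 (−2.72, SE 0.24). Atp2b4 was higher (1.14, SE 0.32). Atp2b2 had 0 and 0 counts in WT colon, 5 and 2 in DDX5ΔIEC colon, 121 and 101 in WT ileum and 32 and 45 in DDX5ΔIEC ileum, so that all ileum libraries lay above all colon libraries. Its fitted difference of 7.09 (SE 0.50) depends on how the zero counts are modelled. Of the pumps of internal stores, Atp2c2 (−1.86) and Atp2a3 (−1.19) were lower in the ileum and Atp2a2 (0.68), the common SERCA pump, was higher.

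For the paracellular route, the claudin genes Cldn15 (log2 1.55, SE 0.12) and Cldn2 (0.59, SE 0.14), whose products form cation pores, were higher in the ileum, and Cldn12 was lower (−0.60, SE 0.07). Among the IP3 receptor genes, Itpr1 was lower (−1.82) and Itpr2 (1.14) and Itpr3 (0.25) were higher. In the difference between the genotype differences of the 2 tissues, the criterion called Trpm6 (−0.60, SE 0.18) and Atp2b2 (−5.37, SE 1.68) lower and Atp2b4 (1.77, SE 0.65) higher, with adjusted p-values of 0.749 to 0.753 (edgeR). It called 1.78% of all genes lower and 3.05% higher there. The Atp2b2 value again depends on how its 0 counts in WT colon are modelled, and Atp2b4 had only 5 to 26 counts per library. In the colon Trpm6 was at 300 CPM in DDX5ΔIEC replicate 1 and 199 CPM in replicate 2, against 175 and 184 CPM in WT.

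**Figure D5:**
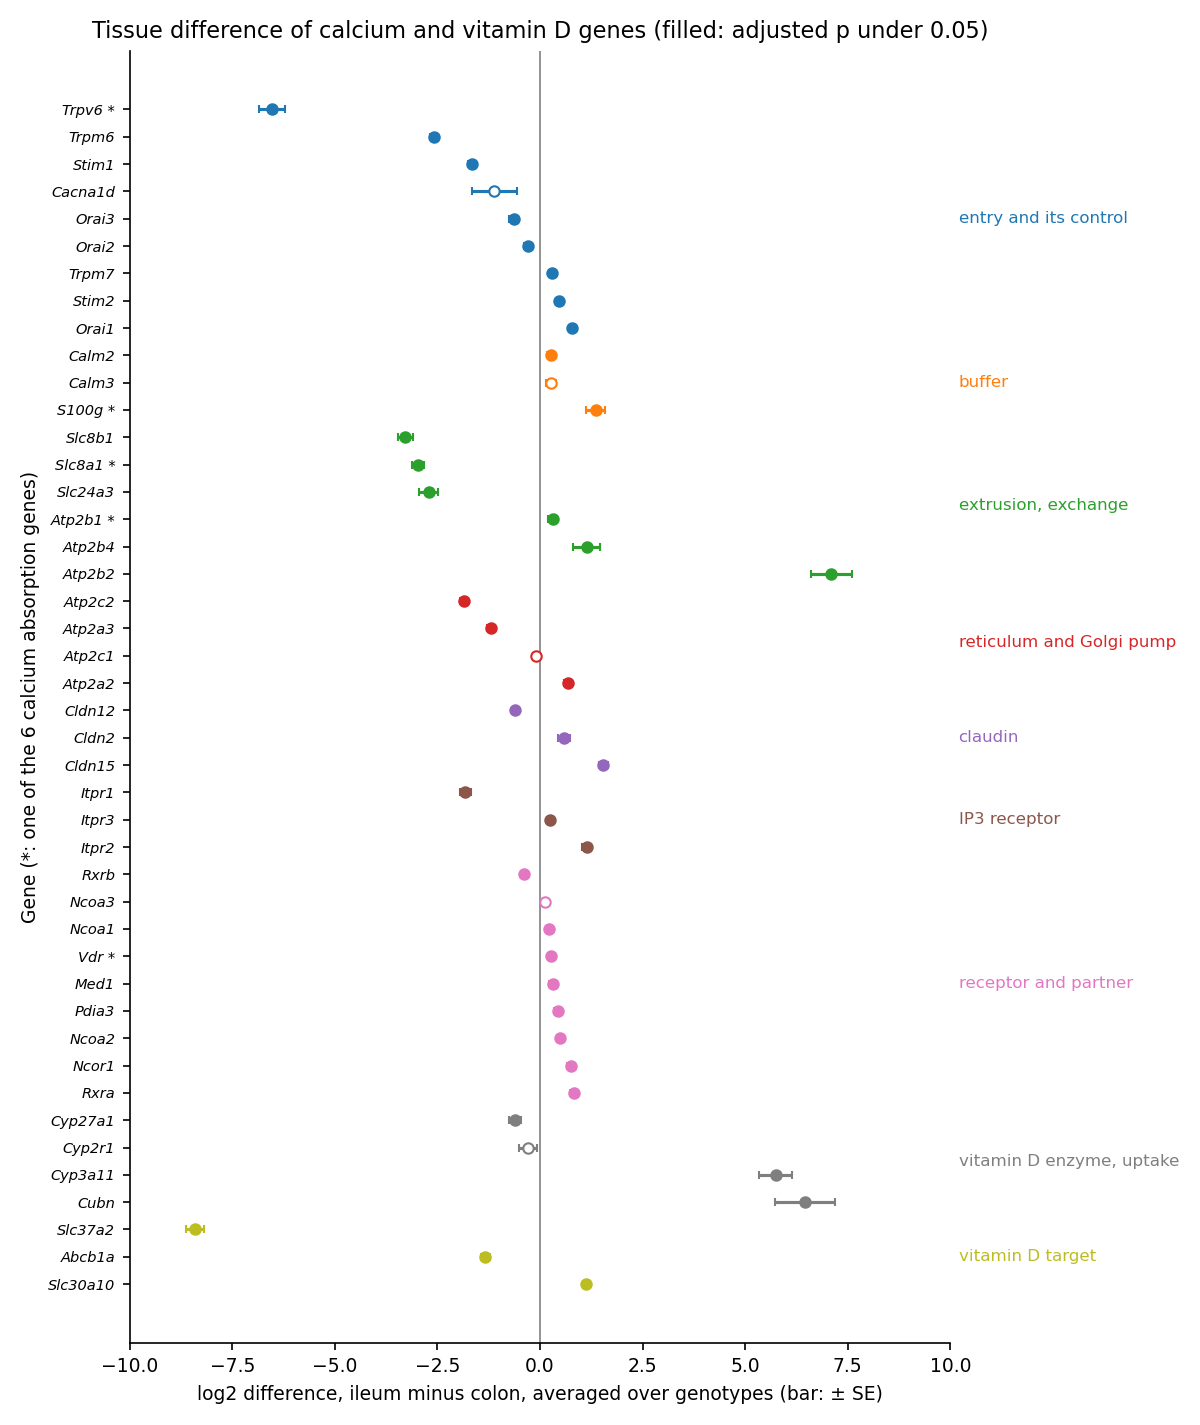
Log2 difference, ileum minus colon, averaged over the genotypes, for the calcium absorption genes (asterisks) and most of the listed calcium transport and vitamin D genes tested, grouped by role, with bars of 1 SE; filled points had an adjusted p-value under 0.05 in edgeR. Trpv6 (−6.54), Slc8b1 (−3.29) and Slc8a1 (−2.96) lie far to the left and Atp2b2 (7.09) far to the right.

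Genes of the vitamin D axis were taken from a list of 20. The 4 that could not be tested over the 8 libraries had at most 8 counts in any library, among them Cyp27b1, the enzyme that activates the hormone, and Lrp2, an uptake receptor. In the colon 15 were fitted, with a median log2 difference of 0.06. The criterion called 2 higher and 0 lower, where it called 3.04% and 3.67% of all genes. They were Cyp2r1, a vitamin D 25-hydroxylase gene, at 0.77 (SE 0.27, adjusted p = 0.395, edgeR), and Slc37a2 at 0.72 (SE 0.14, adjusted p = 0.261, edgeR). Cyp2r1 was at 1.52 and 2.64 CPM in WT colon and at 3.25 and 3.78 CPM in DDX5ΔIEC colon.

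In the ileum the criterion called 4 of the 15 fitted higher and 0 lower, where it called 3.87% of all genes higher and 3.48% lower. The median log2 difference was 0.13. With 1 library left out the count was 1 to 3, namely 1 without WT replicate 2 or DDX5ΔIEC replicate 1, 2 without WT replicate 1 and 3 without DDX5ΔIEC replicate 2. Cyp3a11, a cytochrome P450 gene whose human relative CYP3A4 is a vitamin D receptor target, had 30 and 24 counts in WT ileum and 100 and 60 in DDX5ΔIEC ileum. Both DDX5ΔIEC libraries lay above both WT libraries, at 9.36 and 6.41 CPM against 1.38 and 1.66 CPM, an order that 18.6% of genes showed. Cyp3a11 rose by 2.39 (log2, SE 0.31, adjusted p = 0.00809, edgeR). This call was lost without the replicate block (adjusted p = 0.305) and kept by DESeq2 (adjusted p = 0.00390), and it was lost with any 1 ileum library left out of a fit without a block (adjusted p = 0.0746 to 0.593). The size stayed at 2.07 to 2.64. At an adjusted p-value under 0.05, 0.697% of all genes were called in the ileum. The other genes were Cyp27a1 at 0.92 (SE 0.26, adjusted p = 0.163, edgeR), Cyp2r1 at 0.84 (SE 0.36, adjusted p = 0.374, edgeR) and Abcb1a, the P-glycoprotein gene, at 0.64 (SE 0.16, adjusted p = 0.124, edgeR). The 2 DDX5ΔIEC libraries lay far apart for Cyp27a1, with means of 5.83 ± 0.805 CPM in WT and 11.5 ± 7.11 CPM in DDX5ΔIEC (SD, n = 2).

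Between the tissues, 4 of 16 vitamin D genes were lower in the ileum and 10 higher at an adjusted p-value under 0.05 (edgeR), where 26.0% of all genes were lower and 25.6% higher. Rxra, the partner of the receptor, was higher by 0.82 (SE 0.09), as were the coregulator genes Ncor1 (0.74), Ncoa2 (0.48), Med1 (0.31) and Ncoa1 (0.22), whereas Rxrb was lower (−0.40). Pdia3, which encodes a proposed membrane receptor of the hormone, was higher (0.43). Cubn, encoding an endocytic receptor of the ileum, was higher by 6.45 (SE 0.73) and Cyp3a11 by 5.74 (SE 0.41), while Cyp27a1 was lower (−0.61). Over both libraries Cyp3a11 had 1 count in WT colon and 5 in DDX5ΔIEC colon, so that its fitted difference depends on the model. Of the genes listed as vitamin D targets, Slc37a2 was at 132 to 294 CPM in the colon and 0.187 to 1.11 CPM in the ileum (log2 −8.41, SE 0.22). Abcb1a was lower in the ileum (−1.34) and Slc30a10, a manganese exporter gene, was higher (1.12, SE 0.08). In the difference between the genotype differences, the criterion called Slc37a2 lower (−1.96, SE 0.66) and Slc30a10 higher (0.58, SE 0.16), with adjusted p-values of 0.753 and 0.664 (edgeR).

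Of 14 other S100 genes, relatives of S100g, 7 could be tested, and the others had at most 10 counts in any library. None of the 7 met the criterion for genotype in the colon or the ileum, with log2 differences from 0.02 to 0.35 and from −0.34 to 0.25, respectively. Between the tissues S100a14 (−2.72), S100a6 (−2.06), S100a1 (−1.66), S100a16 (−1.52) and S100a13 (−1.05) were lower in the ileum at an adjusted p-value under 0.05 (edgeR), and S100a11 (0.90) and S100a10 (0.88) were higher. S100g at 1.35 lay above all of them, but that average rests largely on the low colon values of the DDX5ΔIEC mice. In WT the mean of S100g was 27.3 CPM in the colon and 36.0 CPM in the ileum. In the same order S100a10 was at 174 and 347 CPM and S100a11 at 4.92 and 8.64 CPM, larger rises than that of S100g. S100a16 alone met the criterion for the difference between the genotype differences, at −0.58 (SE 0.16, adjusted p = 0.660, edgeR).

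Among the genes whose log2 CPM was most like S100g over the 8 libraries were Flywch1 (Pearson r = 0.963), Gm17322 (0.957), Myd88 (0.956) and Gm38699 (0.948). Myd88, an adaptor gene of Toll-like receptor signalling, was at 26.1 and 25.8 CPM in WT colon, 22.9 and 23.4 in DDX5ΔIEC colon, 26.6 and 26.7 in WT ileum and 26.2 and 23.7 in DDX5ΔIEC ileum. It was thus lowest in the same 3 libraries as S100g, within a much narrower range. Among those most like Slc8a1 were Hs3st3b1 (0.983), Chpf (0.980), Pycr1 (0.974) and Gm37626 (0.966). Hs3st3b1, a heparan sulfate sulfotransferase gene, was at 2.03 and 1.45 CPM in WT ileum and at 5.15 and 5.45 CPM in DDX5ΔIEC ileum, against 6.12 to 7.87 CPM in the colon. Pycr1, of proline synthesis, was at 3.22 and 2.63 CPM in WT ileum, at 6.46 and 6.83 CPM in DDX5ΔIEC ileum and at 6.77 to 8.33 CPM in the colon. These correlations describe 8 libraries from 4 mice, picked as the highest of all genes, and carry no p-value.

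Genes that neighbour S100g and Slc8a1 on the chromosome were read within 1000000 bases of each. Slc8a1 had 3 fitted neighbours, Sos1, Map4k3 and Thumpd2, with log2 differences of −0.35 to −0.06 in the ileum and −0.24 to 0.53 in the colon, and none met the criterion. S100g had 10, of which 1 met it in each tissue. Grpr, the bombesin receptor gene, was at −1.29 (SE 0.28, adjusted p = 0.274, edgeR) in the colon and Ap1s2 at −0.85 (SE 0.28, adjusted p = 0.242, edgeR) in the ileum.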

How the data were processed

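RNAseq was done by the authors on ribosome-depleted RNA of IECs with 100-base paired-end reads, aligned to mm10 with STAR 2.6.1a. Uniquely mapped reads over exons were counted per gene with featureCounts on GENCODE vM19, and the raw counts were deposited in 1 table per tissue, with the length in bases of each gene's counted exons. The libraries were stranded per the labels, but the strand setting of the counting is not given in the sources used here. Genes with no count in a tissue are not listed in its table and were taken as 0. The deposited tables also hold normalised signal, means and the authors' own DESeq2 1.18.1 comparison (fold changes and p-values), which were not used.

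The raw counts of the 4 libraries of a tissue were fitted with edgeR 4.0.16 in R 4.3.3 (filterByExpr with a minimum count of 10, TMM, quasi-likelihood test), blocked by replicate number in place of the harvest covariate of the study. The 8 libraries were fitted together with the mouse as a block for the tissue difference and for the difference between the genotype differences. p-values were adjusted by Benjamini-Hochberg over all genes tested. Each SE from edgeR is the size of the log2 difference divided by the square root of the test's F statistic. It is not a direct measure of the spread between mice. DESeq2 gave SEs of 0.32 and 0.93 for S100g in the colon and the ileum. In the colon it gave 0.91 for Trpv6 and 0.24 for Slc8a1. Samples of a group are separate mice, 2 per group. That the colon and ileum libraries of a number come from 1 mouse was checked against per-mouse values among the study's supplementary data. Deviations from the group means correlated at 0.127 in WT and 0.145 in DDX5ΔIEC for libraries of 1 mouse, and at −0.025 in the colon and 0.131 in the ileum for libraries of 1 number.

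The 6 genes and the lists were chosen with earlier results of these data known. The text names the 6 genes, every listed calcium, vitamin D or S100 gene that met the criterion (log2 difference of at least 0.5 in size and unadjusted p-value under 0.05) or had an adjusted p-value under 0.05, and the 5 genes most like S100g and Slc8a1. A few of these genes are not reported here. Neighbouring genes and marker genes were added beside them. DESeq2 1.42.0, RLE scaling, other filters, fits without a block, 3 repeat-like genes left out and each library left out were the alternatives. The fits were tested on simulated data first. Promoter windows came from RefSeq (GRCm38.p6), and positions from GENCODE M21.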

Additional observations from a re-analysis of the deposited data

Results flagged for a closer look

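Slc8a1 lay below both WT libraries in both DDX5ΔIEC libraries of the colon and above both WT libraries in both DDX5ΔIEC libraries of the ileum. The log2 genotype difference in the ileum exceeded that in the colon by 4.96 (SE 0.29). The gene was chosen with this contrast known, so the value is a description.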

How the results depend on the processing

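Under another tool, scaling, filter, block or set of genes, 122 of 123 log2 differences of the calcium absorption genes kept their sign. The exception was Vdr without a filter, where the difference between the genotype differences went from 0.0058 to −0.030. The causes of the changes given here were not tested. The tissue difference of Atp2b1 missed the threshold without the mouse block (0.32, adjusted p = 0.0521), without a filter on low counts (0.25, adjusted p = 0.0901) and without the 3 repeat-like genes (0.31, adjusted p = 0.0545), and that of Vdr without a filter (0.19, adjusted p = 0.220). Calcium transport genes that met the criterion in the colon numbered 0 by DESeq2 and 4 with all 8 libraries in 1 fit, against 2, and in the ileum 0 without the replicate block, 0 by DESeq2 and 0 with all 8 libraries, against 1. Vitamin D genes in the colon numbered 1 by DESeq2, against 2. Without the replicate block the genotype difference of Trpv6 in the colon went from 0.20 to 0.39, and Cyp3a11 lost its call as given above. Leaving out the mouse or replicate block changed no other call among the tissue differences of the calcium absorption genes. The tissue calls of the listed calcium transport, vitamin D and S100 genes are given with the block only. With 1 library left out (fits over all libraries without a block, where a lone library is assumed to vary like the other groups), 103 of 116 such differences kept their sign, and the 13 others were small differences of Atp2b1 and Vdr or those of Trpv6. The genotype difference ran in the colon from −3.27 to −2.52 for S100g, −1.16 to −0.20 for Slc8a1, −0.66 to 1.01 for Trpv6, 0.01 to 0.20 for Atp2b1 and −0.043 to 0.14 for Vdr. In the ileum it ran from −1.89 to −0.30 for S100g, 4.19 to 4.40 for Slc8a1, −0.06 to 0.37 for Atp2b1 and −0.01 to 0.13 for Vdr. The difference between these ran from 1.06 to 2.66 for S100g, 4.49 to 5.46 for Slc8a1, −1.14 to 0.64 for Trpv6, −0.16 to 0.28 for Atp2b1 and −0.085 to 0.10 for Vdr. The tissue difference ran from 0.91 to 1.71 for S100g, −3.21 to −2.72 for Slc8a1, −7.13 to −6.03 for Trpv6, 0.20 to 0.42 for Atp2b1 and 0.21 to 0.30 for Vdr. Genes that met the criterion numbered 1 to 5 (calcium) and 1 to 3 (vitamin D) in the colon, and 0 to 1 and 1 to 3 in the ileum. Cyp24a1, and Trpv6 within the ileum, had too few counts for any of these fits.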
